A study of Mus musculus with 8 samples.

Results

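The genes of the glutamate and GABA receptors were looked up in maps of acetylated lysine 27 of histone H3 (H3K27ac), a mark of active promoters and enhancers. They were chosen by symbol alone, as the protein-coding genes of GENCODE M21 named Gria, Grin, Grik, Grid, Grm, Gabr or Gabbr, and they number 47 of 21951 protein-coding genes. Of these, 26 encode glutamate receptor subunits and 21 encode GABA receptor subunits. The maps come from Oli-neu, an immortalised mouse line of oligodendrocyte progenitor cells that the labels describe as embryonic and of strain C57BL/6. The proliferating cells were grown with bFGF and Pdgf-BB. The differentiating cells were kept without growth factors for 1 day, per the labels, with 1 µM of the erb inhibitor PD174265, whereas the culture methods of the study state a longer differentiation. Each state gave 1 library from bulk cells of 1 line, so the states could not be compared against any variation between cultures and no test was made. In such material, fewer cells with the mark and less mark per cell cannot be told apart. The ATAC-seq samples of the series (3 siCtrl and 3 siPadi2) were not analysed here.

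Ionotropic receptors are ion channels that open when the transmitter binds, and metabotropic receptors act through G proteins. AMPA (Gria), kainate (Grik) and NMDA (Grin) receptors are cation channels opened by glutamate. The GABA-A receptors are chloride channels assembled from several kinds of subunit, and GABA-B receptors are the metabotropic receptors for GABA. Oligodendrocyte progenitors are known for receiving synaptic input from neurons through AMPA and GABA-A receptors.

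In each list, 8 of the 47 genes carried H3K27ac at the promoter. A promoter region ran from 3000 bp before to 100 bp after the position where transcription starts (TSS), and any overlapping peak counted. The share was 17.0% (95% exact Clopper-Pearson interval 7.65 to 30.8%), against 23.7% of all protein-coding genes in proliferating cells and 27.7% in differentiating cells. Intervals here cover counting error only and treat genes as independent, although most GABA-A genes sit in clusters. A promoter peak in either state was found at 11 of the 47 genes (23.4%, 12.3 to 38.0%), against 33.8% of all genes. Of these 11, 9 encode ionotropic glutamate receptor subunits, and the others are the metabotropic genes Grm7 and Gabbr1. The 9 are 50% of the 18 ionotropic genes (26.0 to 74.0%), and this interval includes the 33.8% of all genes. None of the 19 GABA-A subunit genes had a promoter peak in either state. The exact interval allows a share of up to 17.6%. The 5 genes marked in both states were Gria2, Gria4, Grik2, Grik3 and Grik5, all AMPA or kainate subunits. Counting peaks up to 1000 bp either way from the TSS, or using the starts of all transcripts, added a delta receptor gene to those marked in both states. The starts of all transcripts also added the NMDA gene Grin3b, at different starts in each state. The 5 genes make up 10.6% of the receptor genes (3.55 to 23.1%), against 17.6% of all genes.

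Promoters with and without a peak are shown first, as the bases upstream of the start of transcription in RefSeq (GRCm38.p6). They are cut back where GENCODE places the start further upstream, and each CpG dinucleotide is in capitals. Gria2, Gria4, Grik2 and Grik3 had promoter peaks in both states, Grik4 had one in differentiating cells, and Gabra2 is a GABA-A gene without a promoter peak in either state.
Gria2 (chr3:80802836-80803085, minus strand): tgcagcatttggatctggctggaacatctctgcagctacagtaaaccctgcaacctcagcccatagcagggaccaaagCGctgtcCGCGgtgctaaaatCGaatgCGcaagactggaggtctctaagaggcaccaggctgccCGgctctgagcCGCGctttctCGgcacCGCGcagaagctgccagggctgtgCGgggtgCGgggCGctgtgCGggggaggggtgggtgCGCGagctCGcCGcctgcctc
Gria4 (chr9:4796235-4796484, minus strand): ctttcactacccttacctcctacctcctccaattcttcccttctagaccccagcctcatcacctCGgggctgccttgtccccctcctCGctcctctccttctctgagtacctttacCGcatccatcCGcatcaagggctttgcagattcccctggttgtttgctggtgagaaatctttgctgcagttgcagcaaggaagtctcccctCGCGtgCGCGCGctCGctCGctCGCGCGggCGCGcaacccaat
Grik2 (chr10:49788767-49789004, minus strand): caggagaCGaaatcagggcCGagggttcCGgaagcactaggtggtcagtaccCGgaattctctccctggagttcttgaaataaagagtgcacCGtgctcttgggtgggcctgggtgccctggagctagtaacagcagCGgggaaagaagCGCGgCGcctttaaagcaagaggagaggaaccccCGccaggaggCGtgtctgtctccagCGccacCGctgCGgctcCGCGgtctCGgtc
Grik3 (chr4:125490446-125490695, plus strand): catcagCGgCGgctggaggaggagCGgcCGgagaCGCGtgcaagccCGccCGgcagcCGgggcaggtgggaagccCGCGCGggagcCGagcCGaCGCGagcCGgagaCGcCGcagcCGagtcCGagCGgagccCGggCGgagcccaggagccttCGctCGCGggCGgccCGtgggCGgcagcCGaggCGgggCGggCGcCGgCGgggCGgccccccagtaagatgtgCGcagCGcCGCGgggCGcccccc
Grik4 (chr9:42944494-42944621, minus strand): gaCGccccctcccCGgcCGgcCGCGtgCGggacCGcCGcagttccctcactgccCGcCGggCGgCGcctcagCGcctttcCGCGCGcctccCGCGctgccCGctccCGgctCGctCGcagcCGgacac
Gabra2 (chr5:71095850-71096099, minus strand): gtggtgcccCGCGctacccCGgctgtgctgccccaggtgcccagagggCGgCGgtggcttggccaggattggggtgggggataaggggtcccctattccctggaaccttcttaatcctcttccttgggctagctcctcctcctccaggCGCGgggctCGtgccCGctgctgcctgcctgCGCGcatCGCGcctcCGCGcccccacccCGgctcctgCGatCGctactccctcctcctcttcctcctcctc

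All 250 bases shown for Grik3 and all 238 shown for Grik2 lay under a peak in both states. Those of Gria4 lay under the proliferating peak, and those of Gria2 under the differentiating peak. The stretch shown for Gabra2 holds 18 CpG, against 16 for Gria4 and 19 for Gria2, and lay under no peak. RefSeq promoters of 300 bases, with a start within 1000 bp of the GENCODE start, were at hand for 31 of the 47 genes. The median number of CpG was 18 in the 9 of them with a promoter peak (range 3 to 50) and 12.5 in the 22 without one. Of the 31, the 15 GABA-A promoters held a median of 11 CpG (range 0 to 25), with Gabra2 at the upper end of that range, and the 9 ionotropic glutamate receptor promoters a median of 26 (range 3 to 50). Over all 14265 protein-coding genes with such a promoter, the medians were 23 with a peak and 9 without. The core of the RE1 element, a motif of the neuronal repressor REST, was searched on both strands as CAGCACC and GGACAG with 2 bases between them. It was in 0 of the 31 receptor promoters and in 0.0491% of all 14265. Of shorter motifs on either strand, GGGCGG was in 58.1% of the receptor promoters and 51.8% of all, TATAAA in 9.68% and 11.2%, and CAGCACC in 6.45% and 7.30%. CAGCTG was in 1 of the 31 (3.23%) against 15.6% of all, and GGACAG in 11 (35.5%) against 22.9%. TGACGTCA, ACAATGG and ACAAAGG were in 0 of the 31, against 2.64%, 2.63% and 4.99% of all.

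**Figure D1:**
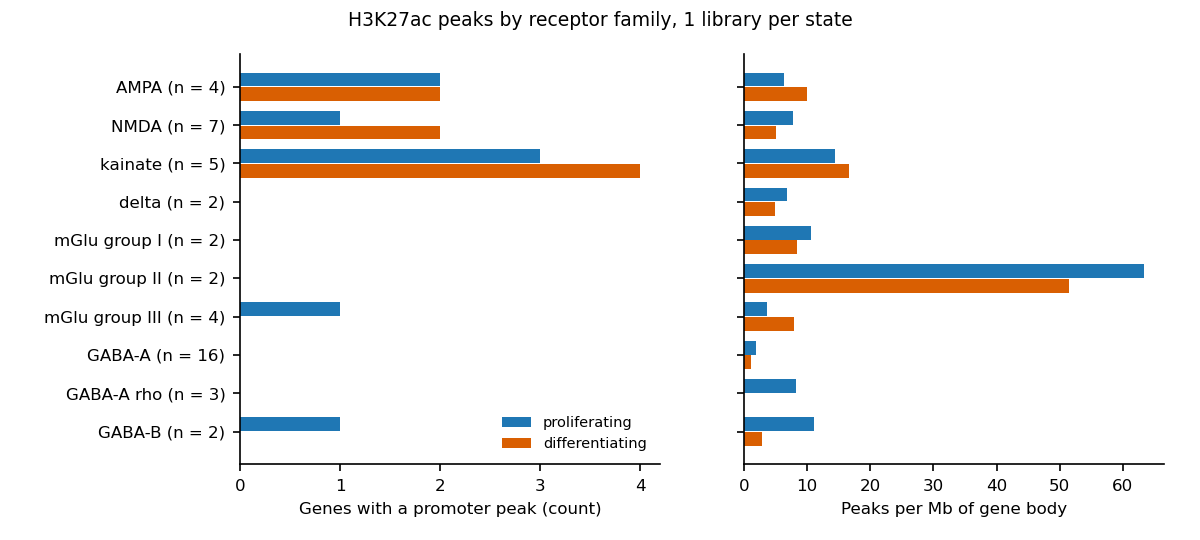
Number of genes whose promoter region overlapped an H3K27ac peak (left, bars) and gene-body peaks per Mb (right, bars), by receptor family, in proliferating and differentiating cells, with 1 library per state. The kainate family has 4 of 5 genes with a promoter peak in either state, and the GABA-A and rho families have 0 of 19.

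The kainate receptor family had the highest share, with a promoter peak in either state at 4 of 5 genes (80%, 28.4 to 99.5%). This interval includes the 33.8% of all protein-coding genes. Grik2 (ENSMUSG00000056073.16, chromosome 10, TSS at 49788766), which encodes the GluK2 subunit, was covered by a peak at its TSS in proliferating and in differentiating cells. It lay at 49788463-49789931 in proliferating cells, with a fold enrichment over background of 3.34, and at 49788463-49790358 in differentiating cells, with a fold of 2.84. Relative to the TSS of Grik2 the differentiating peak began at position -1592 and the proliferating one at -1165, and both ended at +303. Both also cover Gm48123, an unverified transcript upstream of Grik2. Here and below, fold enrichment is the value of the authors' peak caller, and positions are in GRCm38/mm10. Grik3 (chromosome 4, TSS at 125490700), which encodes GluK3, had a peak of 2081 bp at 125489856-125491936 in proliferating cells (fold 3.37), and one of 984 bp at 125490183-125491166 in differentiating cells (fold 2.83). Both covered the TSS of Grik3.

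Grik5 (chromosome 7, TSS at 25072346), which encodes the high-affinity subunit GluK5, had peaks that stopped short of its TSS. The proliferating peak was 263 bp wide, the smallest width in that list, at 25072743-25073005 (fold 3.23). The differentiating peak at 25072452-25073617 (fold 3.49) was 1166 bp wide. Both overlap the neighbouring gene Zfp574, and the second one overlaps the promoter region of Zfp574 as well. They cannot be assigned to Grik5 alone. Grik4 (chromosome 9, TSS at 42944493), which encodes GluK4, had a promoter peak in differentiating cells at 42943758-42944504, from position -11 to +735. With a fold of 4.43 and a −log10 q of 4.64 it was above 96.5% of the differentiating list by fold and 93.1% by −log10 q. By both measures it ranked above the other 7 promoter peaks of receptor genes in that list. The nearest proliferating peak lay 45752 bp from the TSS of Grik4, inside the gene. Grik1, which encodes GluK1, had no promoter peak in either state.

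Of the 4 AMPA receptor genes, Gria2 and Gria4 were marked in both states and Gria1 and Gria3 in neither. That is 50% (6.76 to 93.2%), an interval that includes the shares of all genes in either state (33.8%) and in both (17.6%). Gria2 (ENSMUSG00000033981.14, chromosome 3, TSS at 80802835) encodes GluA2, the subunit that makes AMPA receptors poorly permeable to calcium. Its proliferating peak at 80800465-80802744 (fold 3.33, −log10 q 2.69) began 91 bp downstream of the TSS and lay mostly within the gene. The differentiating peak of Gria2 at 80800547-80803172 (fold 3.39, −log10 q 3.54) covered the TSS. Gria4 (chromosome 9, TSS at 4796234) encodes GluA4. Its peak was 2688 bp wide in proliferating cells, at 4793860-4796547, and 1265 bp wide in differentiating cells, at 4794907-4796171. The proliferating peak covered the TSS of Gria4, and the differentiating peak began 63 bp downstream of it. With 0.5 of the peak required in the promoter region, neither Gria2 nor Gria4 counted as marked in either state. The folds of the Gria4 peaks were 3.22 and 3.80, above 38.3% of the peaks of the proliferating list and 88.2% of the differentiating list. The nearest peak to the TSS of Gria1, which encodes GluA1, lay 6495 bp away in proliferating and 29246 bp away in differentiating cells. For Gria3, which is on chromosome X, the nearest peak was 667224 and 632694 bp away. Chromosome X carried 134 proliferating and 147 differentiating peaks in all, or 0.783 and 0.859 per Mb against 10.6 and 10.3 per Mb over the genome.

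In either state, 3 of the 7 NMDA receptor genes had a promoter peak (42.9%, 9.90 to 81.6%), against 33.8% of all genes. No NMDA gene had one in both states, against 17.6% of all genes. Grin2b, which encodes the GluN2B subunit, had a peak in proliferating cells at 136174500-136174987 on chromosome 6 (fold 3.26), from position -1476 to -989. The Grin2b peak overlapped the antisense gene Gm26653. Grin3a, which encodes GluN3A, a subunit known to lower calcium permeability, had a peak over its TSS in differentiating cells at 49844954-49846121 on chromosome 4 (fold 3.65, −log10 q 2.88). The nearest proliferating peak to Grin3a was 108471 bp away. The Grin3b peak in differentiating cells, at 79968348-79969789 on chromosome 10 (fold 3.07), overlapped the neighbouring gene Wdr18. It lay 926 bp or more upstream of the Grin3b TSS. Grin1, which encodes the subunit GluN1 that NMDA receptors require, had no peak in its promoter region or gene body in either state. The nearest peaks to the TSS of Grin1 were 13027 and 46012 bp away. A peak in 1 list and none in the other is a difference in calls between single libraries, and it held for 3 receptor genes in proliferating cells alone and 3 in differentiating cells alone (6.38% each, 1.34 to 17.5%), against 6.13% and 10.1% of all genes.

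**Figure D2:**
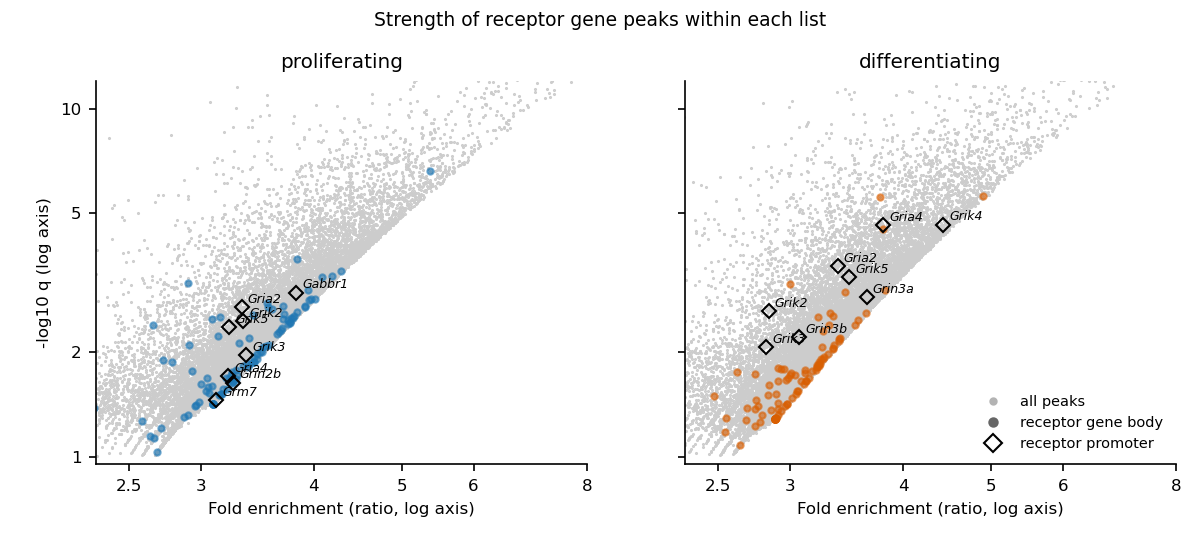
Fold enrichment (x axis, ratio) against −log10 q (y axis) of the peaks in promoter regions and gene bodies of the receptor genes, with promoter peaks as diamonds, drawn over all peaks of the same list, for the proliferating and differentiating libraries. The axes leave out 1.30% and 2.02% of all peaks, and the Grik4 promoter peak in differentiating cells sits at a fold of 4.43 and a −log10 q of 4.64.

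Among the metabotropic receptors, Grm7 and Gabbr1 had promoter peaks, both in proliferating cells alone. These are 1 of 8 metabotropic glutamate genes (12.5%) and 1 of 2 GABA-B genes (50%), against 33.8% of all genes in either state. Grm7, which encodes the group III receptor mGlu7, had a peak at 110644522-110645572 on chromosome 6 (fold 3.12, −log10 q 1.46). This peak ended 9 bp before the TSS and overlapped the antisense gene Gm20387. It was the weakest of the 8 proliferating promoter peaks, above 15.7% of the list by −log10 q. Gabbr1 (chromosome 17, TSS at 37045966), which encodes the ligand-binding subunit of the GABA-B receptor, had a peak of 2529 bp at 37045979-37048507 (fold 3.82, −log10 q 2.96). It began at position +13 and was above 82.0% of the proliferating list by fold, the highest fold of the 8. Transcripts of Gabbr1 start at 11 positions. In proliferating cells this same peak overlapped the promoter regions of 8 of them, so the 8 rest on 1 call. In differentiating cells 0 of them had a peak there. The nearest differentiating peak to the Gabbr1 TSS was 16819 bp away. Gabbr2, which encodes the other GABA-B subunit, had no promoter peak in either state, and its nearest proliferating peak lay 2887 bp inside the gene.

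A promoter peak with a −log10 q of at least 5 was found at 0 of the 47 receptor genes in each state, which allows a share of up to 7.55%. Over all protein-coding genes the shares were 3.27% in proliferating and 4.25% in differentiating cells, so at this number of genes no difference was detectable. The −log10 q of the receptor promoter peaks ran from 1.46 at Grm7 to 2.96 at Gabbr1 in proliferating cells, and from 2.06 at Grik3 to 4.64 at Grik4 in differentiating cells. The median −log10 q of all peaks was 1.93 and 1.89. Raising the lower limit on fold to the median of each list left Gabbr1, Grik2 and Grik3 in proliferating cells and Gria2, Gria4, Grik4, Grik5 and Grin3a in differentiating cells, with no gene in both.

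The 19 GABA-A genes, the rho subunits Gabrr1 to Gabrr3 included, lay far from peaks. The nearest peak to a TSS was a median of 89.4 kb away in proliferating cells and 186 kb away in differentiating cells. The corresponding medians over all protein-coding genes were 17.4 and 15.7 kb, and for the 18 ionotropic glutamate receptor genes 5.64 and 3.46 kb. The closest calls were a proliferating peak 9326 bp from the TSS of Gabra2 and a differentiating peak 10899 bp from that of Gabrd. Of the ionotropic glutamate receptor genes, 10 of 18 had a peak within 1000 bp of the TSS in either state (30.8 to 78.5%), against 36.4% of all protein-coding genes. Of the GABA-A genes 0 of 19 did, which allows up to 17.6%.

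**Figure D3:**
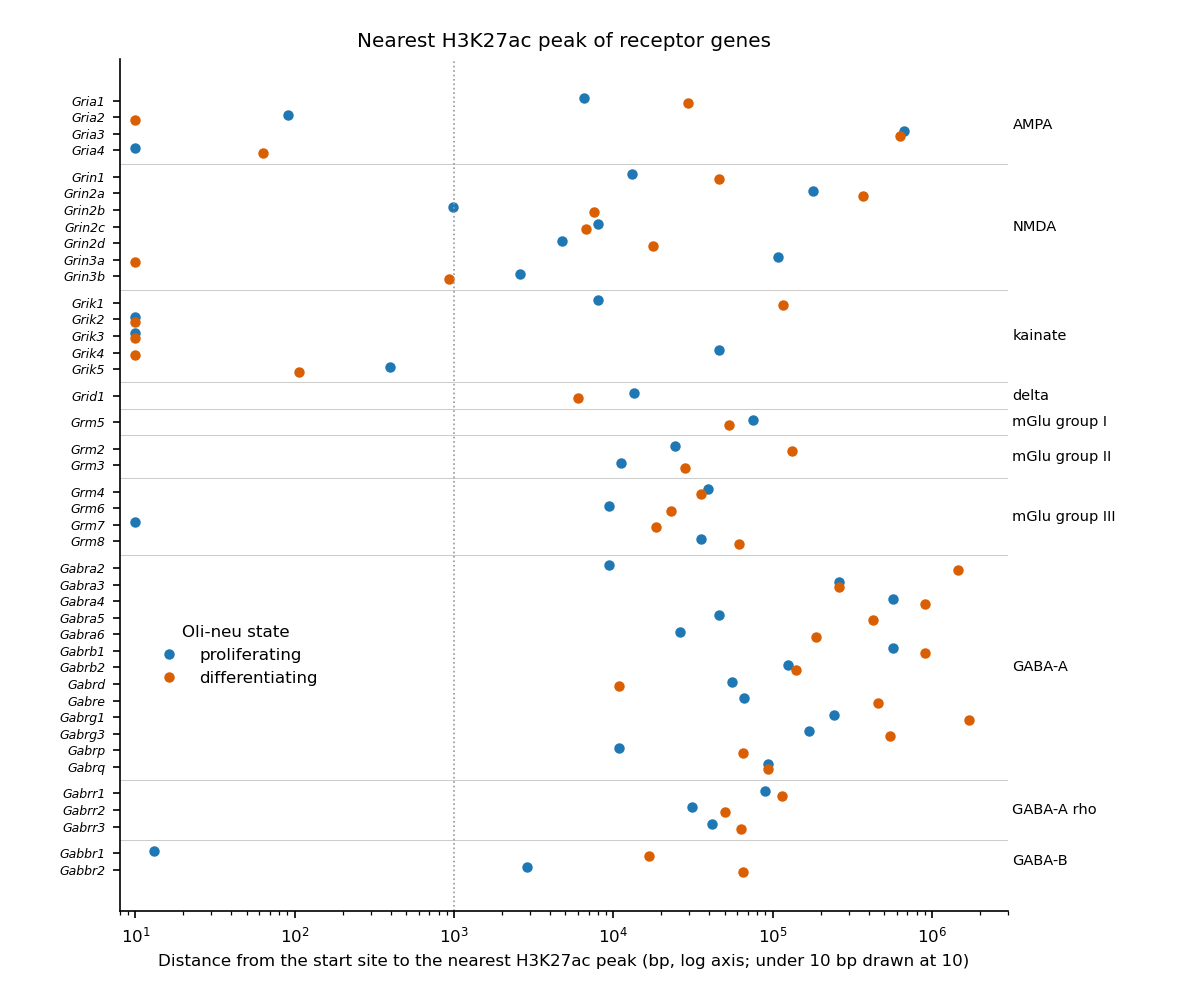
Distance from the TSS of 42 receptor genes to the nearest H3K27ac peak (log axis, bp), by family, for proliferating and differentiating cells. The dotted line marks 1000 bp, distances under 10 bp are drawn at 10, and the 16 GABA-A and rho genes drawn lie at 9326 bp or more in both states.

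Most GABA-A genes sit in clusters, and the peak lists were sparse around several of them. On chromosome 5, Gabrg1, Gabra2, Gabra4 and Gabrb1, which encode γ1, α2, α4 and β1 subunits, follow each other. Within 1 Mb on either side of these genes there were 0.5 to 2.5 peaks per Mb in proliferating cells and 0 to 1 in differentiating cells, whereas chromosome 5 as a whole had 15.1 and 13.8. From the TSS of Gabrg1 the nearest differentiating peak was 1716251 bp away, and from that of Gabra2 it was 1463019 bp away. On chromosome 7, Gabrg3 and Gabra5 (γ3 and α5) had 0.5 and 0.5 to 1.5 peaks per Mb in their flanks, against 6.11 and 5.94 for the chromosome. On chromosome 11, Gabra6 and Gabrb2 (α6 and β2) had 5.5 to 9 and 6 to 8.5, against 16.5 and 15.6. The genes on chromosome X, Gabre, Gabra3 and Gabrq, had 3 to 4 peaks per Mb in their flanks, above the chromosome's own density. Gabrd, which encodes the δ subunit, had 24.5 and 23.5 peaks per Mb in its flanks and no peak in its promoter region or body. Whether the density of peaks nearby bears on the lack of peaks at these genes was not tested.

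Of the 19 GABA-A genes, 13 had no peak in the promoter region or gene body in either state (68.4%, 43.4 to 87.4%). Having no such peak was common, at 44.4% of all protein-coding genes, and the interval reaches down to 43.4%. The 13 genes include Gabra3, Gabra4, Gabra5, Gabra6, Gabrb1, Gabrd, Gabre, Gabrg1, Gabrg3, Gabrq, Gabrr1 and Gabrr2. Among the 26 glutamate receptor genes the same was true of 3 (11.5%, 2.45 to 30.2%), namely Gria3, Grin1 and Grm2. Long genes overlap more peaks, and the median length was 298 kb for the glutamate receptor genes and 88.6 kb for the GABA-A genes. These shares were not matched for length. The remaining GABA-A genes had 6 gene-body peaks in proliferating cells and 3 in differentiating cells. Gabrp, which encodes the π subunit, had 2 proliferating peaks, and Gabra2, Gabrb2 and Gabrr3 had 1 each. In differentiating cells Gabrb2 had 2. The folds of the GABA-A peaks ran from 2.89 at Gabrb2 in differentiating cells to 3.64 at Gabrb2 in proliferating cells, and none overlapped a peak of the other state.

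Within gene bodies, from the first to the last base of a gene, 29 of the 47 genes had a peak in proliferating cells (61.7%, 46.4 to 75.5%), 20 in differentiating cells (42.6%, 28.3 to 57.8%) and 30 in either state (63.8%, 48.5 to 77.3%). Over all protein-coding genes the shares were 41.9%, 43.5% and 52.5%. Receptor genes are long, with a median length of 138 kb against 17.4 kb. Among genes of at least 100000 bp, 21 of 26 receptor genes had a peak in proliferating cells (80.8%, 60.6 to 93.4%), near the 78.2% of all such genes. In differentiating cells 17 of 26 did (65.4%, 44.3 to 82.8%), against 77.2%, which is within the interval. The receptor genes held 100 gene-body peaks in proliferating and 98 in differentiating cells, or 7.99 and 7.83 per Mb of gene, against 16.5 and 17.0 per Mb over all genes. For genes of at least 100000 bp the densities were 7.80 and 8.15 per Mb in receptor genes and 11.7 and 11.9 per Mb in all genes. Introns held 86 and 87 of these peaks.

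**Figure D4:**
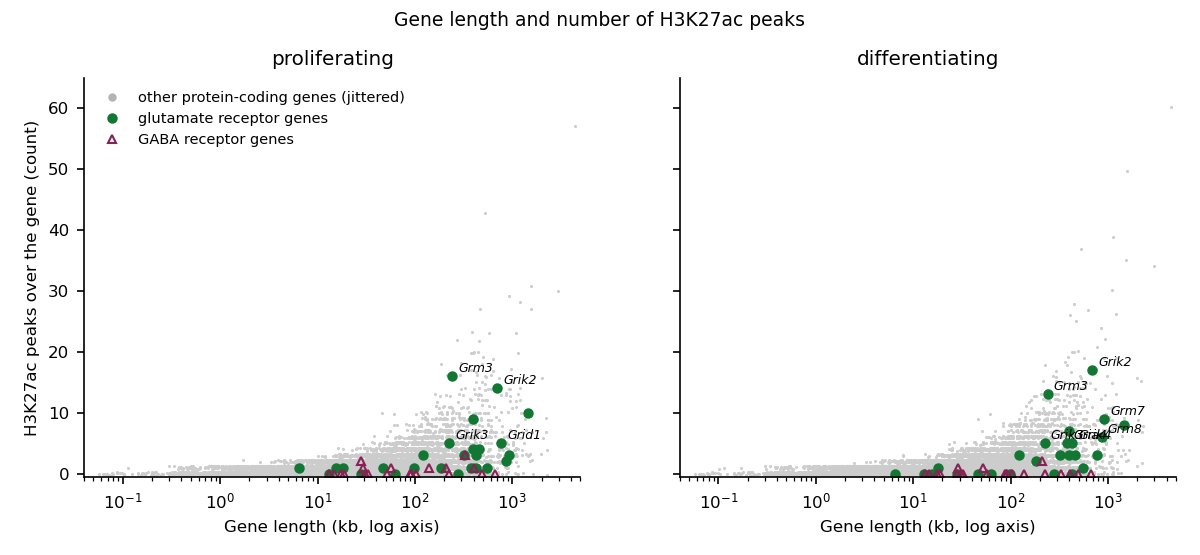
Gene length (x axis, kb, log scale) against the number of gene-body H3K27ac peaks (y axis) for the receptor genes, over all protein-coding genes, in proliferating and differentiating cells. Grm3 with 16 and 13 peaks and Grik2 with 14 and 17 stand highest among the receptor genes.

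The density differed widely between families. The GABA-A genes with rho had 2.16 and 1.08 peaks per Mb of gene body in proliferating and differentiating cells, and the glutamate receptor genes 9.60 and 10.0. Among the latter the kainate genes had 26 and 30 peaks (14.4 and 16.7 per Mb), the AMPA genes 7 and 11 (6.38 and 10.0 per Mb), and the NMDA genes 9 and 6 (7.68 and 5.12 per Mb). The 2 delta receptor genes, whose products bind cerebellins at synapses, had 15 and 11 (6.78 and 4.97 per Mb). Group I metabotropic genes had 10 and 8, and group III had 7 and 15. In group III, Grm7 went from 3 proliferating to 9 differentiating peaks and Grm8 from 2 to 6, with 4 of the differentiating peaks in each at the smallest width of their list, 279 bp.

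Grm3 and Grik2 held the most gene-body peaks. Grm3, which encodes the group II receptor mGlu3, had 16 peaks in proliferating and 13 in differentiating cells, rank 28 and 56 among all protein-coding genes. This is 66.8 and 54.3 peaks per Mb, against 48.5 and 39.0 per Mb within 1 Mb on either side of Grm3 and 15.1 and 13.8 on chromosome 5. The peaks of Grm3 were weak and rarely in the same place in both states. Their median fold was 2.83 and 2.76, below the list medians of 3.33 and 3.13, and 1 of 16 overlapped a peak of the other list. The closest proliferating peak to the Grm3 TSS was 11147 bp upstream. Grik2 had 14 and 17 peaks, rank 42 and 26, or 20.2 and 24.5 per Mb. Around Grik2 the density was 21 and 19.5 per Mb, and chromosome 10 had 23.0 and 22.9 per Mb, so it stood near the level of its chromosome.

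**Figure D5:**
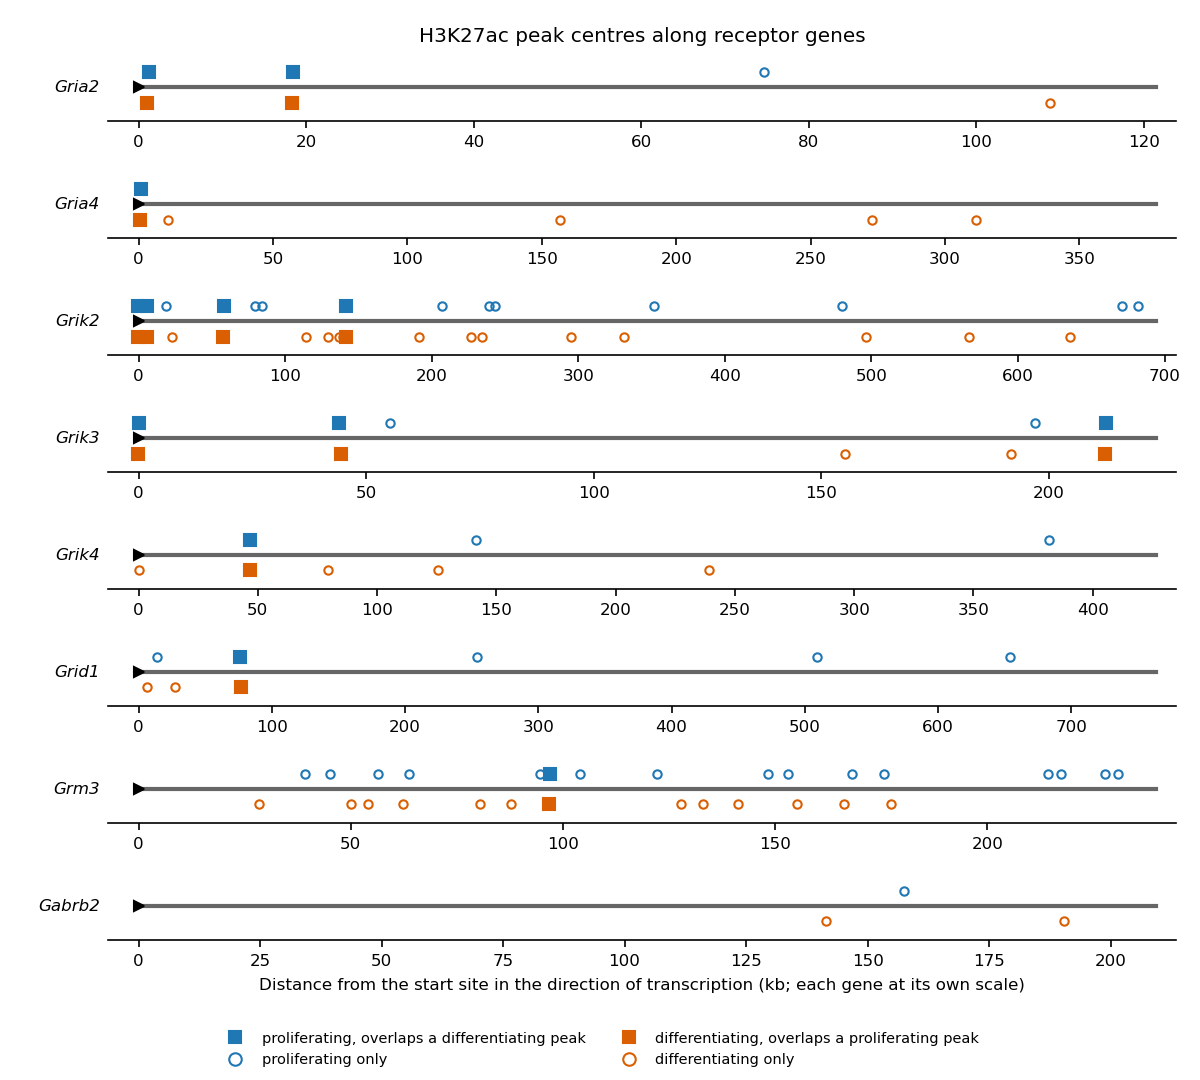
Positions of H3K27ac peaks along 8 receptor genes in proliferating and differentiating cells, as distance from the TSS (kb), each gene at its own scale. Filled squares overlap a peak of the other state, open circles do not, and Grm3 shows 1 filled square among its 16 proliferating peaks.

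Few of the receptor gene peaks fell in the same place in both states. Of all peaks of receptor genes, 15 of 103 proliferating peaks (14.6%, 8.39 to 22.9%) overlapped a differentiating peak, and 15 of 100 differentiating peaks (15%, 8.65 to 23.5%) overlapped a proliferating one. Over the whole lists the shares were 29.2% and 30.1%, and over peaks in genes 37.6% and 36.8%. The promoter peaks were shared at 5 of 8 in each list (62.5%, 24.5 to 91.5%), and the peaks in gene bodies alone at 10 of 95 and 10 of 92 (10.5% and 10.9%). The shares over the whole lists and over peaks in genes include promoter peaks. No share for gene-body peaks alone was computed over all genes, so 10.5% and 10.9% have no like comparison here. These gene-body peaks were narrower, with median widths of 590 and 639.5 bp against 1775 and 1216.5 bp for the promoter peaks, and 26 and 31 of them had the smallest width of their list. In each list 14 of the 15 shared peaks touched a gene body, 8 in kainate, 3 in AMPA and 2 in delta receptor genes and 1 in Grm3, and the other one was the peak upstream of Grik5.

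Outside promoter regions, 10 gene-body peaks of each list overlapped a peak of the other state, and most of them are given here. Grik2 had one 5 kb into the gene, at 49782302-49783941 in proliferating cells (fold 3.08) and 49782637-49783773 in differentiating cells (fold 3.77, −log10 q 5.58). It covers a second annotated start of Grik2, at 49783259, which lies 5507 bp downstream of the first. Further shared peaks of Grik2 lay in introns, at 49730430-49731126 and 49646915-49647594 in proliferating cells. Grik3 had one at 125533766-125535806 and 125533958-125536204, and another at 125702630-125703755 and 125702411-125703888. Grik4 had one at 42897145-42898741 (fold 3.55) and 42897025-42898260 (fold 3.80), and Grm3 one at 9627809-9628514 and 9628282-9628832. Gria2 had one at 80784067-80784741 and 80784185-80784782. Grid1 had one in an intron, at 34896181-34896794 on chromosome 14 in proliferating cells (fold 5.37, −log10 q 6.61). That peak had the highest fold of the receptor genes in proliferating cells, above 98.7% of the list, while the differentiating peak over it, at 34896008-34897665, had a fold of 2.96.

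As examples only, 200 bases are given for the intronic Grid1 peak and for the bases shared by both states at Grik4 and Grik3. They come from the RefSeq GRCm38.p6 genome and run along the strand of the gene, with CpG in capitals.
Grid1 (chr14:34896388-34896587, plus strand): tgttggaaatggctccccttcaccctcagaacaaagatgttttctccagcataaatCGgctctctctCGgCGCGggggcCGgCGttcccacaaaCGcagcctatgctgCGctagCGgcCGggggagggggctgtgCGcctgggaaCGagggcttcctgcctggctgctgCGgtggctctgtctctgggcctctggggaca
Grik4 (chr9:42897603-42897802, minus strand): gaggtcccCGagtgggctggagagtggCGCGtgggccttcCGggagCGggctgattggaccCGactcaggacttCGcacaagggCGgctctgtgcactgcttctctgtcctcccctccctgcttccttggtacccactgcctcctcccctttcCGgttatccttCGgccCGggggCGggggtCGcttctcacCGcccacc
Grik3 (chr4:125534783-125534982, plus strand): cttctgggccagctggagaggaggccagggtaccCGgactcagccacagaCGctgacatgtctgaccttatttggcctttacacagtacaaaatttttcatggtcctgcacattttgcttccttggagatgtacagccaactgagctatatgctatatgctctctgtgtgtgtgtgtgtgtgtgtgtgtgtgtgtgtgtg

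The Grid1 stretch holds 13 CpG and the Grik4 stretch 14, with 64% and 68% of bases G or C. The Grik3 stretch, at 49.5% G or C, holds 2. Over the whole proliferating peak, G or C made up 57.0% at Grid1, 58.9% at Grik4 and 53.2% at Grik3. At the other shared intronic peaks named above it ran from 32.8% in Grik2 to 56.1% in Grik3, so the examples do not stand for all. After Grid1, the highest folds in proliferating cells were 4.28 in Grik1 (chr16:87957664-87957926), 4.19 in Grin3a (chr4:49699639-49699901), and 4.08 and 4.01 in Grik2 (chr10:49581489-49581751 and chr10:49106833-49107095). All of these 4 were intronic and 263 bp wide, and none overlapped a differentiating peak. In differentiating cells the 5 highest folds included the Grik4 promoter peak at 4.43, a Grik1 peak at 3.82 (chr16:88174269-88174547), the shared Grik4 intron peak at 3.80 and the Gria4 promoter peak at 3.80.

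Genes whose products work with these receptors were looked up in the same way, as a list of 59. In either state 18 of them had a promoter peak (30.5%), 14 in proliferating cells (23.7%), 15 in differentiating cells (25.4%) and 11 in both (18.6%), near the shares of all genes given above. By part of the list, the shares marked in both states were 22.2% of auxiliary, 23.5% of scaffold and 25% of ligand genes. They were 25% of enzyme and 0% of transporter genes, against 17.6% of all genes. Of the 18 auxiliary subunits 4 were marked in both states. They are Cacng4 and Cacng7, which encode TARP subunits that escort AMPA receptors, and Neto1 and Neto2, which encode the auxiliary subunits of kainate receptors. Of 17 scaffold genes 4 were marked in both states: Nlgn2 and Gphn, whose products organise inhibitory synapses, and Pick1 and Dlg1, whose products bind glutamate receptors. Cbln3, a cerebellin gene, was marked in both states, as 1 of 4 genes for delta receptor ligands. Among 8 enzyme genes, Glul (glutamine synthetase) and Glud1 (glutamate dehydrogenase) were marked in both. Of 12 transporter genes, Slc1a3 had a promoter peak in proliferating cells and the rest had none in either state.

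The labelled cell type was compared with defining markers in the same lists. Of 12 genes of the oligodendrocyte lineage, Sox10, Olig1 and Olig2 had promoter peaks in both states and Myrf in 1, and the other 8, among them Pdgfra, Cspg4, Nkx2-2, Mbp, Cnp, Mog and Mag, had none. Of 10 neuronal markers, Map2 had a promoter peak in both states and Syt1 in 1. Of 6 astrocyte markers, S100b had one in both and Slc1a3 in 1, and 0 of 5 microglial markers had one. In either state the shares were 33.3% of lineage, 20% of neuronal and 33.3% of astrocyte markers, against 33.8% of all protein-coding genes. The lineage markers were thus near the share of all genes and equal to the astrocyte markers. The part of other cell types in the receptor peaks was not tested.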

How the data were processed

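H3K27ac ChIP-seq peak lists of 1 proliferating and 1 differentiating Oli-neu library were used. The authors aligned reads to GRCm38/mm10 with Bowtie2 2.1.0, kept unique reads without PCR duplicates (SAMtools), called broad peaks per library with MACS2 2.0.10 and removed blacklisted regions with bedtools. No input library is named in the sources used here. The deposited text cell of each peak was read in the caller's usual order: first the authors' fold enrichment, a ratio, then the p-value and the q-value on a −log10 scale. The lists hold 28924 and 27965 peaks with q up to 0.0995 and 0.0983. They hold no counts, so the depth behind a peak is unknown. Receptor genes and gene lists were chosen with earlier results of these data known.

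Peaks were intersected with GENCODE M21 genes in Python 3.11.15 (numpy 2.4.6, pandas 2.3.3, scipy 1.17.1, matplotlib 3.10.9), and sequences read with pysam 0.24.0. Any shared base counted as an overlap. Genes are named if they had a promoter peak, 1 of the 5 highest folds, the most gene-body peaks of a family, or no peak. For 5 receptor genes and 1 marker, single values are not reported here. Others, such as Slc1a3, Gria1 and Gabbr2, were named after their values were seen. On simulated data for the proliferating promoter count, 100% of 200 planted promoter peaks were recovered among 21951 genes and 0% of adjacent ones were called. The planted peaks were placed to overlap a promoter region and the adjacent ones to start right after it. This checks the overlap code only and does not measure how well H3K27ac is detected. Alternatives varied the promoter region, the transcript starts, the overlap, and limits on q and fold.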

Additional observations from a re-analysis of the deposited data

How the results depend on the processing

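Of 88 alternative values for 14 results, 52 stayed within 1.5 times the count or within the interval. With peaks of a −log10 q of at least 5, promoter peaks were found at 0 receptor genes and 0 synaptic and transmitter genes in proliferating, differentiating, either and both states. Gene-body peaks then remained in 1 and 2 receptor genes, or 0.0799 and 0.160 per Mb, and 0% overlapped the other state. With a q of at most 0.05, the differentiating density was 6.31 per Mb. With a fold at or above the list's median, promoter peaks were found at 3 and 5 receptor genes and 0 in both, and at 8 synaptic and transmitter genes in proliferating cells and 6 in both states. The densities were 3.84 and 3.04 per Mb, and 4.17% and 5.13% of peaks overlapped the other state. Requiring 0.5 of the peak in the region left 4 receptor genes in each state, 6 in either and 2 in both, namely Grik2 and Grik5. It left 4 and 7 synaptic and transmitter genes, 9 in either and 2 in both. Taking the TSS of every transcript gave 24 synaptic and transmitter genes in differentiating cells and 28 in either state, and 12 and 10 receptor genes. A reciprocal overlap of 0.5 left 7.77% and 8% of receptor gene peaks with a counterpart. The GABA-A genes had 0 promoter peaks under each of these settings. Fewer peaks or a narrower rule account by construction for the lower counts under the limits on q, fold and overlap. No paired analysis was possible because each state has 1 library and no test was run. The ATAC-seq samples, whose siCtrl and siPadi2 replicates carry the same numbers, were not analysed here. With 1 library per state and no counts, differences between states could not be set against any error between cultures.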
